A study of Homo sapiens with 6 samples.

Results

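The enzymes that build fatty acids from acetyl-CoA, together with those that lengthen and desaturate them, were examined as a set of 10 genes chosen by symbol: ACLY, ACSS2, ACACA, FASN, SCD, FADS1, FADS2, ELOVL5, ELOVL6 and DBI. They are 10 of the 26255 gene symbols listed in the deposited tables, and each symbol was found in all 6 samples. The samples came from 22RV1, an established human castration-resistant prostate cancer (CRPC) cell line, grown in RPMI 1640 with 10% fetal bovine serum, a full medium that also carries serum lipids. One group of 3 samples received only the vehicle DMSO, and the other group of 3 received 10 nM bruceantin (BCT), a quassinoid natural product, both for 24 h. RNA was sequenced, and the values are FPKM, fragment counts scaled to transcript length and to the fragments mapped in the sample. The comparison asks how a single dose of BCT changed transcript levels at a single time in a single line, and nothing in the labels says that the 3 samples of a group were separate cultures, so the p-values measure the spread between samples, which may be technical.

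Fatty acid synthesis starts in the cytosol, where citrate or acetate is turned into acetyl-CoA, which is carboxylated to malonyl-CoA and assembled into palmitate by a single large synthase. Elongases then add carbons to the chain and desaturases insert double bonds, which gives the oleate and polyunsaturated acyl chains of membranes and stored lipid. Most of these genes are known targets of the sterol regulatory element binding proteins (SREBPs).

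All 10 genes were lower after BCT, and every BCT sample lay below every DMSO sample for each of them. Of the 10, 9 passed the call used here, a log2 fold change beyond 0.85 with an adjusted p below 0.05, by limma with Benjamini-Hochberg adjustment over the 12729 genes whose FPKM averaged 1 or more. Among all tested genes, 17.8% were called lower and 13.9% were called higher, and 44.3% had every BCT sample below every DMSO sample. None of the 10 was called higher, and 0 were higher at an unadjusted p below 0.05 in limma, beside 5049 of the 12729 tested genes. The median log2 fold change of the 10 was -1.62, beside -0.04 over all tested genes. In these bulk samples, fewer cells of a kind and less RNA per cell cannot be told apart.

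**Figure D1:**
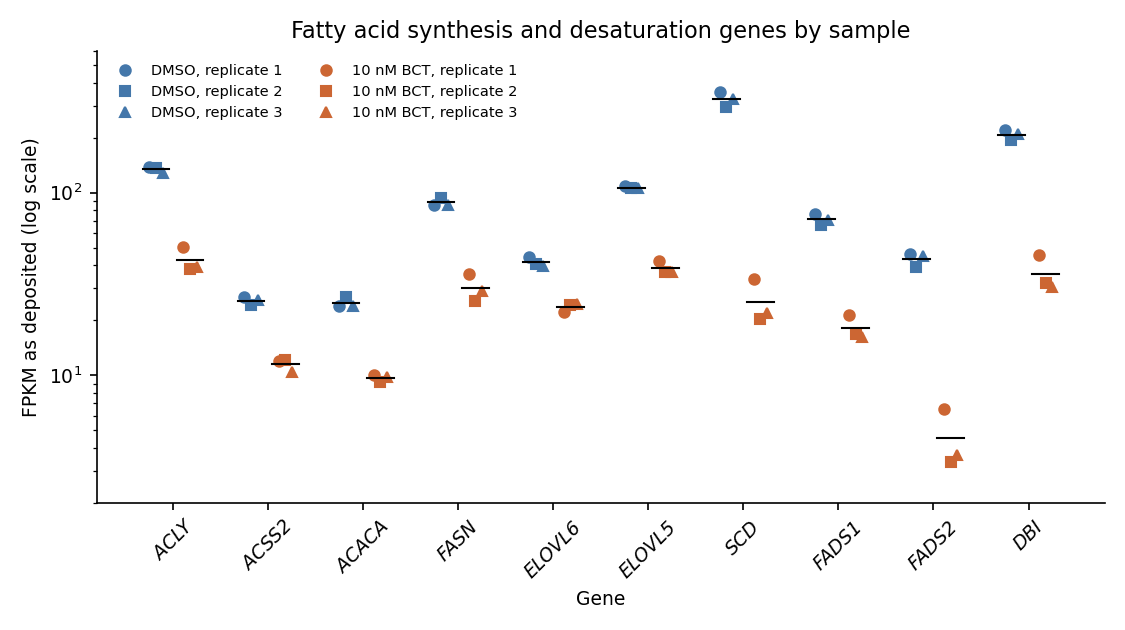
FPKM of the 10 genes in each of the 3 DMSO and 3 BCT samples, on a log axis, with 1 point per sample and a bar at each group mean. Every BCT point lies below every DMSO point of the same gene, and the gap is widest for SCD and FADS2 and narrowest for ELOVL6.

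The pair of genes that supply acetyl-CoA fell by different amounts. ACLY, ATP citrate lyase, splits the citrate that leaves the mitochondrion. It is listed at chr17:40023170-40075275 on the minus strand (hg19). ACLY stood at 138, 137 and 129 FPKM in the DMSO samples and at 50.4, 38.4 and 39.2 FPKM in the BCT samples. The groups did not overlap, and their means went from 134.6 ± 5.20 to 42.7 ± 6.70 FPKM (SD, n = 3 each). The log2 fold change of ACLY was -1.67 (SE 0.10, adjusted p = 1.8e-06, limma with Benjamini-Hochberg adjustment), a 3.16-fold lower level. ACSS2, which makes acetyl-CoA from acetate, is listed at chr20:33462766-33515769 on the plus strand. Its values were 26.8, 24.3 and 25.9 FPKM in DMSO and 11.9, 12.1 and 10.4 FPKM in BCT. Each BCT value was less than the lowest DMSO value, and the log2 fold change was -1.16 (SE 0.07, limma adjusted p = 2.1e-06).

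The carboxylase and the synthase came next in the pathway. ACACA, acetyl-CoA carboxylase alpha, makes malonyl-CoA in the committed step, and is listed at chr17:35441927-35766902 on the minus strand, a position the tables also give to C17orf78. ACACA measured 24.1, 26.9 and 24.1 FPKM in DMSO and 10.1, 9.18 and 9.77 FPKM in BCT. The groups were apart and narrow, with a log2 fold change of -1.36 (SE 0.07, limma adjusted p = 8.8e-07). FASN, the fatty acid synthase that releases palmitate, lies at chr17:80036214-80056106 on the minus strand. It measured 86.0, 93.8 and 85.5 FPKM in DMSO and 35.7, 25.6 and 28.8 FPKM in BCT. BCT replicate 1 was the highest of its group, yet still below each DMSO sample, and the log2 fold change of FASN was -1.57 (SE 0.11, limma adjusted p = 3.7e-06). FASN and ACACA kept close to a fixed proportion in DMSO, where the FPKM of FASN was 3.57, 3.49 and 3.55 times that of ACACA. In BCT the same ratio was 3.54, 2.79 and 2.95, so that BCT replicate 1 fell within the range of the DMSO samples and the groups overlapped.

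The 2 elongases moved unequally. ELOVL5, which lengthens polyunsaturated chains, is listed at chr6:53132196-53213977 on the minus strand. ELOVL5 measured 108, 106 and 106 FPKM in DMSO and 42.3, 36.7 and 36.8 FPKM in BCT, a log2 fold change of -1.47 (SE 0.06, limma adjusted p = 6.5e-07). Its BCT samples all lay far from the DMSO range. ELOVL6, which takes palmitate to stearate, is listed at chr4:110970229-111119820 on the minus strand. Its levels were 44.3, 40.9 and 39.6 FPKM in DMSO and 22.3, 24.2 and 24.4 FPKM in BCT. ELOVL6 was the gene that missed the call: its log2 fold change of -0.81 (SE 0.06, 95% CI -0.96 to -0.67) had a limma adjusted p of 5.4e-06 but was short of the fold threshold. The ratio of ELOVL6 to ELOVL5 was 0.408, 0.387 and 0.376 in DMSO and 0.527, 0.659 and 0.663 in BCT. These ratios did not overlap, and ELOVL6 gained in proportion to ELOVL5 in each BCT sample.

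The desaturases SCD and FADS2 had the largest log2 fold changes of the 10 genes. SCD, stearoyl-CoA desaturase, makes oleate and palmitoleate and is listed at chr10:102106772-102124588 on the plus strand. SCD was the most abundant of the 10 in DMSO, at 358, 297 and 326 FPKM, and stood at 33.6, 20.2 and 22.1 FPKM in BCT. The mean went from 326.9 ± 30.3 to 25.3 ± 7.25 FPKM (SD, n = 3 each), so that 7.73% of the DMSO level was left. Its log2 fold change of -3.72 (SE 0.17, limma adjusted p = 7.9e-07) placed SCD at rank 31 among the 12729 tested genes, ordered from the most negative.

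FADS1 and FADS2, the front-end desaturases that lead to arachidonic and docosahexaenoic acid, lie side by side on chromosome 11 and are transcribed in opposite directions. FADS1 measured 76.6, 66.7 and 71.3 FPKM in DMSO and 21.4, 16.7 and 16.1 FPKM in BCT. FADS2 measured 46.0, 39.1 and 45.1 FPKM in DMSO and 6.54, 3.36 and 3.66 FPKM in BCT. Neither gene had overlapping groups, and FADS2 showed the deeper drop, at a log2 fold change of -3.30 (SE 0.22, limma adjusted p = 2.8e-06) beside -1.99 (SE 0.11, limma adjusted p = 1.3e-06) for FADS1. The ratio of FADS1 to FADS2 was 1.66, 1.71 and 1.58 in DMSO and 3.28, 4.98 and 4.40 in BCT. The tables list both genes at 1 shared position, chr11:61567097-61634826 (hg19), and the kit does not mark strand. In GENCODE the exons of the 2 genes share 490 bases on opposite strands, 4.79% of FADS1 and 4.64% of FADS2. Reads that lie wholly within those bases cannot be assigned to either gene. On the same strand, FADS1 also shares 0.782% of its exon bases with MIR1908, and FADS2 shares 0.464% with FEN1. FADS3, the third gene of the cluster, went from 14.2 ± 0.685 to 3.0 ± 0.181 FPKM (log2 fold change -2.20), and was called lower.

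DBI, the acyl-CoA-binding protein that carries long-chain acyl-CoA between enzymes, is listed at chr2:120124500-120130127 on the plus strand. DBI measured 221, 195 and 209.6 FPKM in DMSO and 45.6, 31.8 and 30.5 FPKM in BCT. Its groups were far apart, with 17.3% of the DMSO mean left and a log2 fold change of -2.55 (SE 0.14, limma adjusted p = 1.3e-06).

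**Figure D2:**
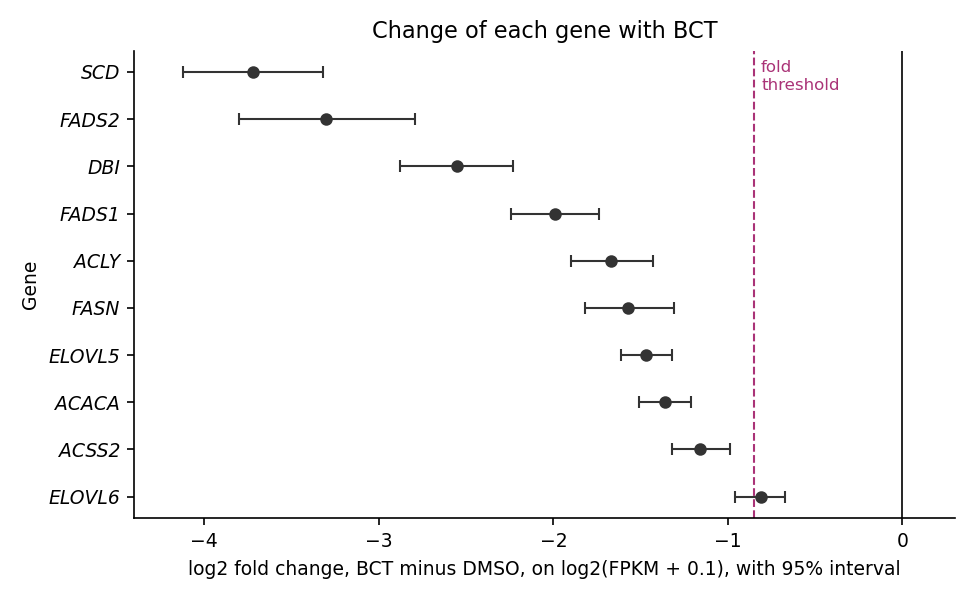
Log2 fold change of BCT minus DMSO for the 10 genes, with points for the limma estimate, bars for its 95% confidence interval and a line at the fold threshold of -0.85. SCD at -3.72 and FADS2 at -3.30 lie lowest, and ELOVL6 at -0.81 is the gene short of the threshold.

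Windows of 250 bases before the RefSeq transcript starts (GRCh38.p14) were read for the 9 of the 10 genes that the promoter table holds (all but FASN), 17 windows in all. Both strands were searched for 4 motifs: a sterol regulatory element, an E-box, a CCAAT box and a GC box. The sterol regulatory element was spelled TCACNCCAC. The letters of the E-box were CACGTG, those of the CCAAT box are its name, and those of the GC box were GGGCGG. None of the 4 motifs holds another, but GC boxes may overlap one another. The sterol regulatory element letters were in 0 of the 17 windows and in 0.883% of the 35116 windows of the table. CCAAT letters stood in 10 of the 17 windows, from 6 genes, and in 32.0% of all windows. GC boxes stood in 13 of the 17, from 8 genes, and in 42.6% of all windows, and E-boxes in 3 of the 17, from 2 genes, and in 6.34% of all windows. Up to 4 windows belong to the same gene and some overlap, so the 17 are not independent. A match is only a description of letters in the window, and no match draws nothing about a factor. The 4 windows shown are those of the gene with the deepest drop, of the gene that missed the call and of the 2 genes with an E-box. Capitals mark the motifs on either strand, and each position is that of the motif's leftmost base in the window, with -1 the base before the start.
SCD: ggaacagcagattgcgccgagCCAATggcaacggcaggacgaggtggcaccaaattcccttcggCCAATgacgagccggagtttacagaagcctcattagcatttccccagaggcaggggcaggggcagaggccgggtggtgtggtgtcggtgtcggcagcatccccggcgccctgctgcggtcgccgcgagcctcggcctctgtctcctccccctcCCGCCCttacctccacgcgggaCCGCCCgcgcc
DBI: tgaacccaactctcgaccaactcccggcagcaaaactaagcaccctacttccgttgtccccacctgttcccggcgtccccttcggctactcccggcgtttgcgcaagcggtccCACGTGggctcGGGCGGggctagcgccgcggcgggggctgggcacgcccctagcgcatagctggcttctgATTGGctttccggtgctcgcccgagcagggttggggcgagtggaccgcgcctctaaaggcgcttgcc
ELOVL5: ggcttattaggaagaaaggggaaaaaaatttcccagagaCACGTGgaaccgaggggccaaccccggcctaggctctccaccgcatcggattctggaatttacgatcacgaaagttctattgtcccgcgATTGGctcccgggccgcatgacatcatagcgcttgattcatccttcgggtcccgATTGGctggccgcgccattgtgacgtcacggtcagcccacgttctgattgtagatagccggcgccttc
ELOVL6: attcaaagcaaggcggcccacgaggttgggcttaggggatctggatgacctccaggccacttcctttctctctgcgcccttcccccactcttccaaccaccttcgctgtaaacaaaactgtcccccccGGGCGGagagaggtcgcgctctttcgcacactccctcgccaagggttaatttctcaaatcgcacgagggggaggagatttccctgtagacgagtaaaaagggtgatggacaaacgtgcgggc
The SCD window, chr10:100346983-100347232 on the plus strand, holds CCAAT boxes at -229 and -186 and GC boxes of the opposite strand at -33 and -11. In the DBI window, the window listed at the top of 4 in the table, chr2:119366727-119366976 on the plus strand, an E-box stands at -137, a GC box at -126 and a CCAAT box of the opposite strand at -67. The ELOVL5 window, chr6:53348951-53349200 on the minus strand, has an E-box at -211 and CCAAT boxes of the opposite strand at -122 and -68. The ELOVL6 window, chr4:110198616-110198865 on the minus strand, has a single GC box at -122 and none of the other 3 motifs.

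The order of the 10 genes by FPKM, a level per length of transcript, differed between the groups. In DMSO the order was SCD, DBI, ACLY, ELOVL5, FASN, FADS1, FADS2, ELOVL6, ACSS2 and ACACA. Among neighbours in that order, FADS2 and ELOVL6 overlapped over samples, as did ACSS2 and ACACA. In BCT the upper 6 were ACLY, ELOVL5, DBI, FASN, SCD and ELOVL6, and each overlapped the next. Below them came FADS1, ACSS2, ACACA and FADS2 with no overlap between neighbours. The summed FPKM of the 10 genes was 1129, 1026 and 1061 in DMSO and 279.8, 218.2 and 221.7 in BCT, a 4.47-fold lower mean. SCD made up 31.7%, 28.9% and 30.7% of that sum in DMSO and 12%, 9.26% and 9.95% in BCT. ELOVL6 went the other way, from 3.92%, 3.98% and 3.73% of the sum in DMSO to 7.97%, 11.1% and 11.0% in BCT.

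**Figure D3:**
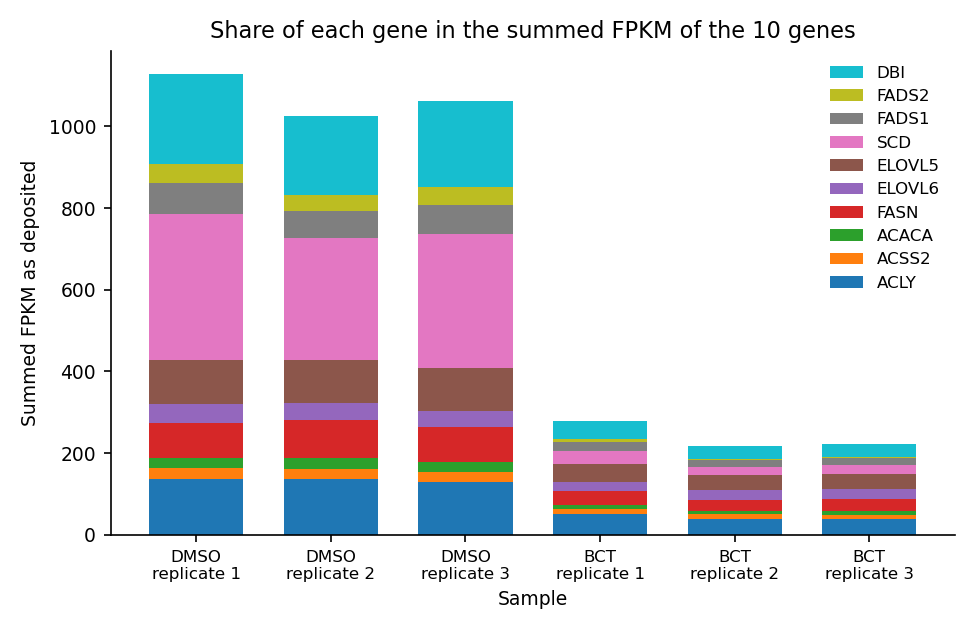
Summed FPKM of the 10 genes in each sample, as bars from 0 stacked by gene. The DMSO bars reach 1026 to 1129 FPKM and the BCT bars 218.2 to 279.8 FPKM, with SCD the largest segment in DMSO.

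Ratios of 6 pairs of genes were compared within samples, since a change of scale between samples leaves a ratio as it is. With 3 samples against 3 the exact two-sided permutation test cannot go below p = 0.1, so none of the 6 could pass 0.05. The SCD to FASN ratio was 4.16, 3.16 and 3.81 in DMSO and 0.942, 0.789 and 0.766 in BCT. SCD thus went from well above FASN to below it in every BCT sample, with an exact permutation p of 0.1 (0.12 after adjustment over the 6 pairs). The DBI to FASN ratio was 2.57, 2.07 and 2.45 in DMSO and 1.28, 1.24 and 1.06 in BCT. The ACLY to ACSS2 ratio was 5.15, 5.64 and 4.97 in DMSO and 4.24, 3.17 and 3.76 in BCT. Neither of these ratios overlapped between the groups, and each had the smallest exact permutation p, 0.1, as did the ratios of ELOVL6 to ELOVL5 and of FADS1 to FADS2. The FASN to ACACA ratio was the pair that overlapped, with an exact permutation p of 0.2.

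**Figure D4:**
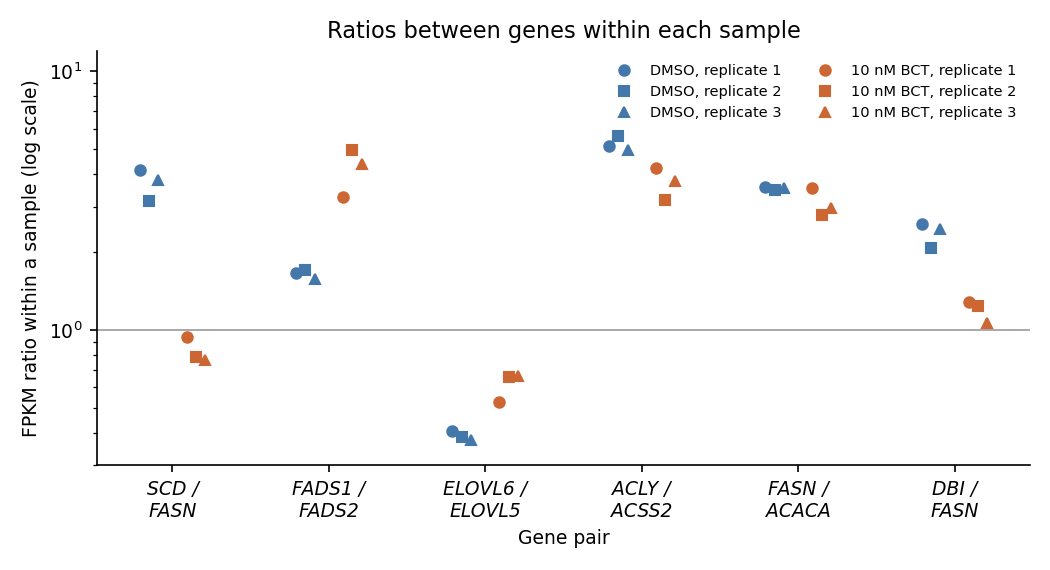
FPKM ratios of 6 pairs of genes in each DMSO and BCT sample, on a log axis, with 1 point per sample. 5 of the pairs are apart between the groups, with FADS1 to FADS2 and ELOVL6 to ELOVL5 higher in BCT, and FASN to ACACA overlaps.

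The other genes around the pathway were read from 9 lists by their role, each tested in the same fit. Counts of each list stand beside the same shares of all tested genes, 17.8% called lower and 13.9% called higher. At an unadjusted p below 0.05 in limma, 5049 of the 12729 tested genes were higher. Of the genes that feed citrate, acetyl-CoA and NADPH, 7 of 9 were tested and 4 were called lower, with a median log2 fold change of -0.96. IDH1, a cytosolic source of NADPH, went from 263.7 ± 19.2 to 85.7 ± 11.0 FPKM (log2 fold change -1.63). SLC25A1, the citrate carrier, had a log2 fold change of -1.04. None of this list was called higher, with 1 higher at an unadjusted p below 0.05 in limma. Of the mitochondrial synthase genes and other modifiers of malonyl-CoA, 9 of 11 were tested and 2 were called lower, at a median of -0.38, a share near the 17.8% of all tested genes. The called genes were NDUFAB1, the mitochondrial acyl carrier protein, at -1.16, and MLYCD, malonyl-CoA decarboxylase, at -1.07. MLYCD shares 12.9% of its exon bases with other genes on the same strand. ACACB, the second acetyl-CoA carboxylase, was not called at -0.41, from 2.50 to 1.86 FPKM, nor was HSD17B8 at -0.41. The position listed for HSD17B8 is on an alternate haplotype sequence, 6_qbl_hap6, and how reads were assigned there is not given.

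Elongation and desaturation beyond the 10 genes had 12 of 17 genes tested and 7 called lower, with 0 called higher and 1 higher at an unadjusted p below 0.05 in limma. For this list and those that follow here, 17.8% of all tested genes were called lower and 13.9% higher. CYB5A, the cytochrome that passes electrons to desaturases, went from 81.2 ± 3.33 to 18.1 ± 2.36 FPKM (log2 fold change -2.17). TECR, the last reductase of the elongation cycle, had -1.55, and ELOVL2 had -1.74 at 2.83 against 0.782 FPKM. TECR shares 8.9% of its exon bases with DNAJB1 on the opposite strand. Acyl-CoA synthetases and binding proteins had 4 of 10 tested genes called lower and 0 called higher, with 2 higher at an unadjusted p below 0.05 in limma. That last count stands beside 5049 of the 12729 tested genes. The 4 were ACBD7 at -2.49, ACSL4 at -1.73, FABP5 at -1.60 and ACSL6 at -1.47. ACSL4, at a mean of 1.86 in DMSO against 0.490 FPKM in BCT, and ACSL6, at 1.53 against 0.498 FPKM, were low genes. ACSL6 also shares 12.6% of its exon bases with a protein-coding gene on the same strand. Glycerolipid synthesis had 5 of 13 called lower at a median of -0.75, among them LPCAT1 at -1.95 and DGAT2, which makes triacylglycerol, at -1.79. DGAT2 shares 6.83% of its exon bases with non-coding genes on the opposite strand. AGPAT1 at -1.41 and LPCAT3 at -1.0 share 30.3% and 66.0% of their exon bases with genes on the opposite strand. The position listed for AGPAT1 is also on an alternate haplotype sequence, 6_ssto_hap7.

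Beta-oxidation, which breaks fatty acids down, had 6 of 21 tested genes called lower and 1 called higher, beside 17.8% and 13.9% of all tested genes. At an unadjusted p below 0.05 in limma 3 of the list were higher, beside 5049 of the 12729 tested genes. No difference of this list from all genes was tested. ACAA2, HADH, ACADM and ACADS, enzymes of the mitochondrial cycle, had log2 fold changes of -2.40, -1.98, -1.66 and -1.51. ACAA2 shares 7.83% of its exon bases with a protein-coding gene on the same strand, and ACADM shares 11% with other genes. CPT1B, the muscle-type carnitine palmitoyltransferase, was called higher, from 10.1 ± 1.78 to 23.3 ± 2.77 FPKM (log2 fold change 1.20, limma adjusted p = 4.9e-05). The tables list CPT1B at the same position as CHKB and CHKB-CPT1B. On the same strand, 66.4% of its exon bases are shared with CHKB-CPT1B, so its rise cannot be told apart from a change of CHKB-CPT1B.

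Of the regulators of the pathway, 3 of 10 were called lower and 1 higher, beside 17.8% and 13.9% of all tested genes, counts too small to set the list apart. INSIG1, which holds the SREBP precursors in the endoplasmic reticulum and is itself an SREBP target, went from 125.1 ± 13.3 to 4.97 ± 2.57 FPKM (log2 fold change -4.73). SREBF1, which encodes the SREBP that drives fatty acid genes, went from 77.2 ± 2.29 to 18 ± 3.43 FPKM (log2 fold change -2.11). SREBF2, whose product drives cholesterol genes, went from 117.4 ± 3.45 to 25.9 ± 2.50 FPKM, at -2.18. NR1H3, the liver X receptor alpha that can activate SREBF1, was called higher, from 7.23 ± 0.607 to 14.4 ± 2.0 FPKM (log2 fold change 0.98, limma adjusted p = 4e-05). It shares 4.17% of its exon bases with ACP2 on the opposite strand, and the tables list both genes at 1 shared position. ACP2 went from 11.1 to 19.2 FPKM (log2 fold change 0.79) and was not called. Opposite-strand genes also share 6.75% of the exon bases of SREBF1 and 9.08% of those of SREBF2. The position listed for SREBF1 is also given to RAI1, and that of SREBF2 to MIR33A.

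The nearest pathways, which take the same acetyl-CoA to sterols, were lower too. Their counts stand beside the 17.8% of all tested genes that were called lower. Of the mevalonate genes, 7 of 8 were called lower, with the same median as the 10 genes, -1.62, and HMGCS1 had the largest change of that list at -3.01, with 37.7% of its exon bases shared with a non-coding gene on the opposite strand. Of the genes from squalene to cholesterol, 11 of 12 were called lower, with a median of -2.23, and SQLE, the squalene epoxidase, went from 48.7 to 3.58 FPKM (log2 fold change -3.76). SCD and FADS2 had values of that size, while the median of the 10 was less negative than that of the cholesterol list. No difference between the lists was tested.

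**Figure D5:**
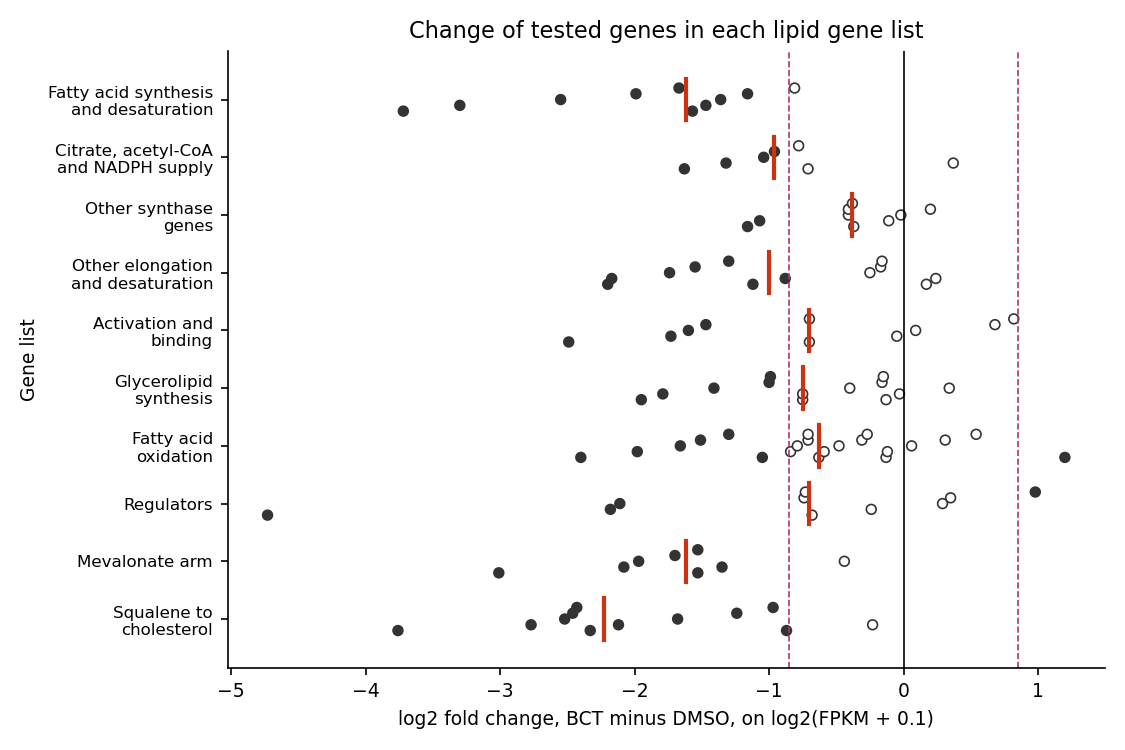
Log2 fold change of BCT minus DMSO for each tested gene of the 10-gene set and the 9 lists, with filled points for called genes, open points for the others, dashed lines at the fold threshold in each direction and a bar at each list's median. The squalene to cholesterol list has the lowest median at -2.23, and the set of 10 and the mevalonate list both lie at -1.62.

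The level of every gene above depends on the scale of each sample. FPKM summed to between 1169649 and 1572321 in DMSO and between 757534 and 799838 in BCT, and MIR6087 alone held 31.7% to 55.3% of each sum. With all sums set equal, the median log2 fold change over all tested genes moved from -0.04 to 0.72, and the log2 fold change of SCD was -2.95 and that of ELOVL6 was -0.05. On that scale ACSS2 at -0.39, ACACA at -0.60, FASN at -0.80 and ELOVL5 at -0.70 lost the call, which left 5 of the 10 called lower. Set against the median of all genes, the median of the 10 was -1.58 as deposited and -1.57 with equal sums.

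BCT replicate 1 stood apart from the other BCT samples on the leading principal component, at 40.2 beside 65.0 and 63.8, with DMSO at -57.7 to -54.3. It was the highest BCT sample for 8 of the 10 genes, and for 88.8% of all genes called lower. Without it the 10 log2 fold changes ran from -3.94 for SCD to -0.77 for ELOVL6, and 9 were called lower. The 9 markers of this luminal prostate line summed to between 872.4 and 879.6 FPKM in DMSO and between 1838 and 2013 FPKM in BCT. Of 16 markers of basal, stromal, immune and endothelial cells, 12 stayed below 1 FPKM in every sample, CD3E and CDH5 were at 0 in every DMSO sample, and the 16 summed to 8.81 to 9.58 FPKM in DMSO and 25.5 to 30.7 FPKM in BCT. Higher in BCT were ACTA2, at 3.45 to 4.46 against 13.0 to 14.7 FPKM, COL1A1, at 1.23 to 1.55 against 5.04 to 6.31 FPKM, and CD68, at 2.05 to 3.16 against 4.95 to 8.16 FPKM, while the stromal markers COL1A2, COL3A1 and DCN and the immune marker PTPRC stayed below 1 FPKM. The stromal marker LUM went the other way, at 0.925 to 1.06 FPKM in DMSO against 0.524 to 0.635 FPKM in BCT. The part of these differences in the results for the 10 genes was not tested.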

How the data were processed

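Libraries of 22RV1 RNA were made with a TruSeq RNA v2 kit, which does not keep strand. Per the labels and the methods of the study, the authors trimmed reads with Trimmomatic 0.38 (the version in the submitters' processing notes), aligned the reads to hg19 with HISAT2 and used StringTie for assembly, and the deposited values are FPKM per gene. The notes also name HTSeq and CASAVA, and the gene annotation is not given in the sources used here. FPKM hold no counts, so the depth behind a value is unknown.

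The deposited FPKM were tested with limma 3.58.1 in R 4.3.3 on log2(FPKM + 0.1), with a mean-variance trend, for genes whose FPKM averaged 1 or more over all 6 samples. The log2 fold changes are on that scale, which understates the change of low genes. A gene was called past a log2 fold change of 0.85 at a Benjamini-Hochberg FDR of 0.05. That rule was tried on simulated data with changes well past the fold threshold. The trial did not cover genes near the threshold or a change of scale between samples. The 10 genes and the 9 lists were chosen with earlier results of these data known. Named from each list were its 4 tested genes of largest absolute log2 fold change and any gene called against most of its list; some of the genes so chosen are not reported here. For these lists, not every gene so chosen passed the call. No sample was identical to another. Same-numbered samples deviated together at correlations of 0.116, 0.0328 and 0.0342, which does not show that the numbers pair samples. Gene positions are the deposited hg19 ones, exon overlap was read from GENCODE lifted to the same build, and promoter windows are RefSeq's. Some other named genes also share exon bases with other genes, and those overlaps are not listed.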

Additional observations from a re-analysis of the deposited data

How the results depend on the processing

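The 10 genes kept a negative log2 fold change under all 19 alternatives, and 185 of 190 values kept their side of the call. With equal FPKM sums 5 of the 10 were called lower in place of 9, and ACSS2, at -0.77, also lost its call with equal sums that leave out MIR6087. Over all tested genes, 2263 were called lower and 1764 higher, so that 56.2% of calls were lower. With equal sums there were 668 lower and 5614 higher (10.6% lower), and without MIR6087 in the sum 1208 and 3370 (26.4% lower), where the median over all genes was 0.344. A test against the fold threshold itself gave 1392 lower and 1033 higher. Without the filter 2657 genes were called higher, and with only genes averaging 5 FPKM or more 1150. Of the genes in the 9 lists, 49 were called lower and 2 higher as reported, against 26 lower and 14 higher with equal sums, 5 higher without MIR6087 in the sum, 4 higher without the filter and 0 higher in the test against the fold threshold. HSD17B8 at 0.35 and ACACB at 0.33 reversed with equal sums. The cause of these moves was not tested. With replicate number as a block, 9 of the 10 genes, 2266 of all genes and 49 list genes were called lower, so the block changed no call of the 10. Leaving out each sample in turn gave 9 of the 10 called lower each time, and 2146 to 2488 of all genes lower and 1684 to 1932 higher. With 3 samples a group and no counts, the precision of a single low gene is limited.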
